A study of Mus musculus with 4 samples.

Results

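Nuclear genes for subunits of the mitochondrial oxidative phosphorylation complexes were followed across 4 mouse liver arrays. The set was a fixed list of 39 genes out of 20882 named genes on the array, with 20 genes of complex I, 4 of complex II, 7 of complex III including cytochrome c, 5 of complex IV and 3 of complex V. Members were found by matching the transcript accession of each probe to a gene symbol, and the list was fixed by gene identity rather than by a cutoff on measured values, although earlier results of these data were known when it was drawn up. All 39 were found. The complex of a gene was read from its symbol. Ndufa4 is therefore counted in complex I by its name, although its product is now placed in complex IV. The livers came from male mice, either wild type or with the catalase gene Cat knocked out. Each genotype was given either a normal diet with 18% of its calories from fat or a high-fat diet with 60.3% of its calories from fat, for 11 weeks, between 29 and 40 weeks of age. There was 1 one-colour Agilent 44K array for each of the 4 combinations. The labels used here do not give the strain, how the knockout was made, or whether a sample was 1 animal or a pool. With no replicates no p-value can be given, and every difference below compares 2 RNA samples rather than 2 conditions.

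The oxidative phosphorylation system sits in the inner mitochondrial membrane. Complexes I and II take electrons from NADH and succinate, complex III passes them to cytochrome c, complex IV hands them to oxygen, and complex V, the ATP synthase, uses the proton gradient built by complexes I, III and IV to make ATP. Most subunits are encoded in the nucleus and a few in mitochondrial DNA, so the nuclear genes are only one side of the supply. Hepatocytes are rich in mitochondria and use this system to oxidise fatty acids, and the electron transport chain is also a source of superoxide and hydrogen peroxide. Catalase, the enzyme missing in the knockout, breaks down hydrogen peroxide, mainly in peroxisomes.

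The promoters of these genes are the region in which textbook regulators of respiratory chain genes bind, among them NRF1 (nuclear respiratory factor 1), the ETS family factor GABPA, YY1 and the estrogen-related receptor ESRRA. RefSeq promoter windows on assembly GRCm38.p6, from 250 bases before to 50 bases after the annotated start, were matched by symbol for 28 of the 39 genes. Both strands were searched for 4 motifs, none of which contains another. The NRF1 letters GCGCANGCG were found in 9 of 28 genes (32.1%), against 7.03% of 27025 genes with such a window. The YY1 letters AAGATGGC were found in 4 of 28 (14.3%, against 3.19%), the GABPA letters CCGGAAG in 4 of 28 (14.3%, against 9.93%) and the ESRRA letters AAGGTCA in 1 of 28 (3.57%, against 5.38%). Any of the 4 motifs occurred in 16 of 28 windows (57.1%, against 22.4%). A match describes letters only and is no evidence of binding. The 4 YY1 matches, in Ndufs7, Ndufa9, Ndufs4 and Ndufb8, all began between 24 and 38 bases after the start.

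The 150 bases before the start are printed for 4 genes with a match there and for the 2 genes whose values stood furthest from the other members in a comparison. Letters run 5′ to 3′ on the coding strand, and capitals mark NRF1 motif matches on either strand and, in Sdhd, also the GABPA match CTTCCGG on the opposite strand. Sdha, the flavoprotein of complex II, held 3 NRF1 matches, the most of any member in this stretch.
Ndufa8, chr2:36049339-36049488, minus strand: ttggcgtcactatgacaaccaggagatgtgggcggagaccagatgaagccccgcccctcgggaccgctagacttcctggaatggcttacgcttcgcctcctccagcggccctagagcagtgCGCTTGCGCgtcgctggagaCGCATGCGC
Sdha, chr13:74350241-74350390, minus strand: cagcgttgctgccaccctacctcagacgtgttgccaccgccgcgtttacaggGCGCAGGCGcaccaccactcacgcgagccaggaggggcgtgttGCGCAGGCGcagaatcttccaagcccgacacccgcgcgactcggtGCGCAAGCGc
Sdhd, chr9:50603850-50603999, minus strand: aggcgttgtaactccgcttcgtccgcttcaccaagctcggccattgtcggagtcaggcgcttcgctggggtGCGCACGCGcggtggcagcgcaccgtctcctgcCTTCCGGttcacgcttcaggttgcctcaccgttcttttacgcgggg
Cycs, chr6:50566570-50566719, minus strand: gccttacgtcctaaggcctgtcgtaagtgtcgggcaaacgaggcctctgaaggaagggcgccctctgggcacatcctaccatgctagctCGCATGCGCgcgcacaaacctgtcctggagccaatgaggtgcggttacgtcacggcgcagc
Uqcrc1, chr9:108936498-108936647, plus strand: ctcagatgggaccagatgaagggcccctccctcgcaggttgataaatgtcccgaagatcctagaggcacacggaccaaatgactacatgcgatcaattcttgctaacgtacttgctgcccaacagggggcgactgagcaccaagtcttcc
Cox7a2, chr9:79759854-79760003, minus strand: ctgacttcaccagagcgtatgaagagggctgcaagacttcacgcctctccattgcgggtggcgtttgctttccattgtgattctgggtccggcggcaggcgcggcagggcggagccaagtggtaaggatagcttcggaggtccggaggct
Uqcrc1 held no match in the stretch shown but had NRF1 matches beginning 6, 30 and 31 bases after its start, the last 2 on opposite strands and overlapping. Cox7a2 held none of the 4 motifs in its window.

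Levels below are log2 values of the scanner's processed signal relative to the 75th percentile of the same array, so that 0 is the 75th percentile and 1 unit is a 2-fold difference in signal. Error terms (±) come from the scanner's error model, which puts 10% on most bright spots and so about 0.20 on a log2 difference. They cover the spot and not the animal. A gene was called at 2-fold, and separately at 1.5-fold (0.58 on the log2 scale), where its probe stood well above background on each of the 2 arrays or, if on 1 only, where its bound reached that size. The arrays had 23760 to 25184 of 39429 probes well above background, and 0 saturated spots. Values by array are given below in 1 order: normal-diet wild type, high-fat wild type, normal-diet knockout, high-fat knockout. Cat, the gene targeted, read 4.89, 4.75, 1.13 and 0.95, which was 13.5-fold and 14.0-fold lower in the knockout on the 2 diets.

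The 75th percentile itself differed between arrays, and this sets the sign of several results below. Its signal was 1006, 1019, 1002 and 1152 in that order of arrays. The last array was therefore divided by a value 0.20 higher on the log2 scale than its normal-diet partner, and 0.18 higher than wild type on high-fat diet. For that reason each comparison also gives the same median over 1003 equally bright genes, which are all the other named genes with a mean level between 4.08 and 6.59, the 10th and 90th percentile of the members. It also gives the unscaled difference. Of the 10 ways of processing used below, several cannot change an order of complexes or a distance from the equally bright genes. Median scaling, the percentile over detected probes and no scaling only add a constant to each array. The deposited values and keeping flagged spots repeat nearly the same signal. Only quantile normalization, cyclic loess, normexp background correction and the mean of all probes could change such a result.

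All 39 genes were well above background on all 4 arrays, and each varied little. In scaled signal the gap between a gene's highest and lowest array had a median of 0.28, from 0.09 for Atp5a1 to 0.50 for Uqcrc1. It was under 0.5 for 38 of the 39 genes, against 70.5% of the equally bright genes, whose median gap was 0.36. After scaling, 37 genes read lowest on the array of the knockout on high-fat diet, the exceptions being Ndufa8, lowest in wild type on high-fat diet, and Ndufa10, lowest in wild type on normal diet. Of the equally bright genes, 67.8% also read lowest on that array. In the unscaled signal only 12 of the 39 did, with 7, 12 and 8 lowest on wild type normal diet, wild type high-fat diet and knockout normal diet, and quantile normalization put 28 of the 39 lowest on wild type normal diet. The order of the arrays for these genes thus depends on how the arrays are scaled.

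**Figure D1:**
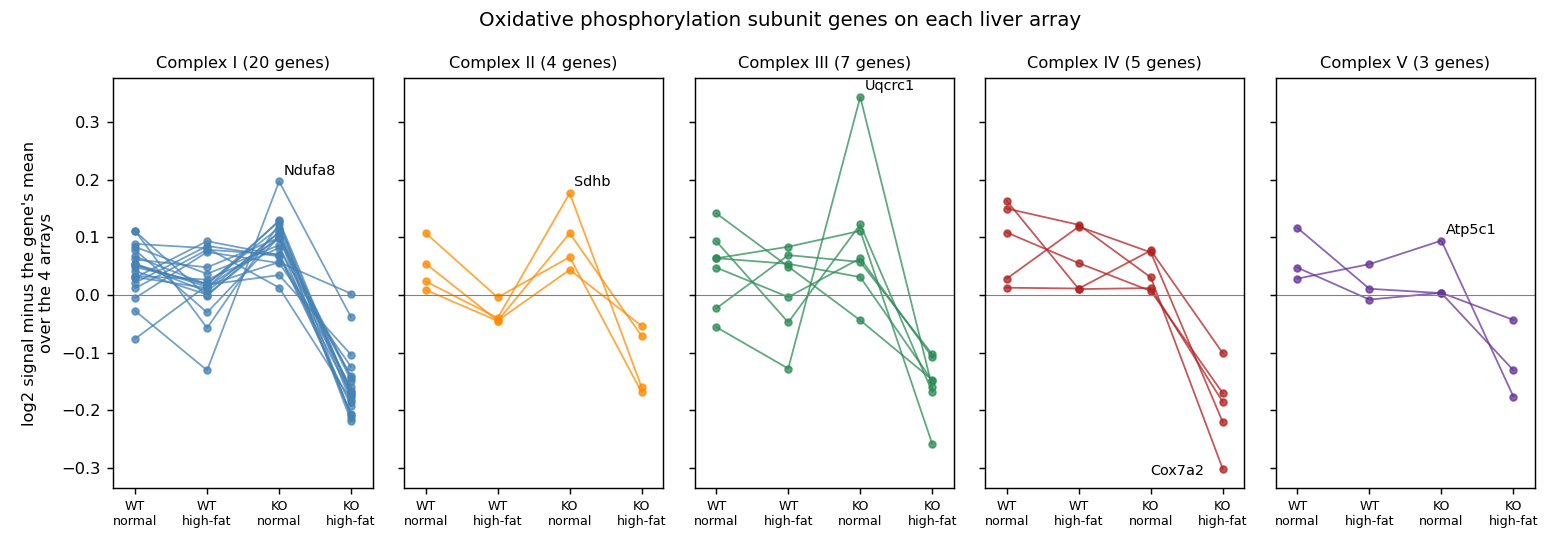
Level of each of the 39 genes on the 4 arrays (WT, wild type; KO, catalase knockout), as log2 signal scaled to the array's 75th percentile minus the gene's own mean over the 4 arrays, 1 line a gene and 1 panel a complex. Lines run close together, Uqcrc1 stands up on the knockout normal-diet array, and 37 of 39 lines end lowest on the knockout high-fat array, a position that holds for only 12 genes without scaling.

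Complex I oxidises NADH and is the largest of the complexes. Ndufs1, its large iron-sulfur core subunit, read 4.91, 4.99, 4.98 and 4.80 (wild type on normal and on high-fat food, then the knockout on each). The NADH-binding flavoprotein gene Ndufv1 read 6.23, 6.12, 6.25 and 6.00 in the same order, and its partner Ndufv2 read 4.96, 5.02, 5.00 and 4.74. These 3 genes of the electron input module spanned 0.20 to 0.29 over the arrays, and none stood apart from the others. Of the core subunits further along the iron-sulfur chain, Ndufs7 read 5.50, 5.33, 5.51 and 5.21 in that order, lower on both high-fat arrays than on both normal-diet arrays. Ndufs8 read 3.44, 3.40, 3.44 and 3.15, with only the knockout high-fat array apart in scaled signal. Its unscaled signals lay closer together, at 10927, 10720, 10915 and 10240.

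Among accessory subunits of complex I, Ndufa6 had the widest spread of the 20 genes in scaled signal, at 5.47, 5.42, 5.53 and 5.19. Its lowest value, on the knockout high-fat array, lay 0.23 below the next in scaled signal. The unscaled signals of Ndufa6 were 44439, 43529, 46201 and 41943. Ndufa10 had the narrowest in scaled signal, at 3.50, 3.59, 3.63 and 3.58, and is one of the 2 members that did not read lowest on that array. The unscaled signals of Ndufa10 were 11380, 12298, 12439 and 13764. In proportion they lay further apart than those of Ndufa6, so this ranking depends on the scaling. Ndufa8, whose upstream stretch with 2 NRF1 matches is shown above, read 3.91, 3.81, 4.13 and 3.90, so that both knockout arrays differed from their wild-type partners upwards, by 0.22 ± 0.20 on normal diet and 0.09 ± 0.20 on high-fat diet. It was the only member of the 39 with a positive scaled difference between genotypes on high-fat diet, and relative to the equally bright genes it was higher in the knockout by 0.22 on normal diet and 0.25 on high-fat diet. Over all 10 ways of processing, that excess ran from 0.19 to 0.30 on normal diet and from 0.20 to 0.25 on high-fat diet. Scaling by a constant leaves this excess unchanged. The other 12 genes counted in complex I by symbol (Ndufa1, Ndufa2, Ndufa4, Ndufa5, Ndufa9, Ndufb3, Ndufb5, Ndufb8, Ndufb9, Ndufb10, Ndufs3 and Ndufs4) had gaps between highest and lowest array from 0.16 for Ndufa4 to 0.33 for Ndufb5. In scaled signal all 12 read lowest on the knockout high-fat array.

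Complex II, succinate dehydrogenase, is the only complex of the chain that is also an enzyme of the tricarboxylic acid cycle and is encoded wholly in the nucleus. Its catalytic flavoprotein gene Sdha was nearly flat in scaled signal, at 5.21, 5.11, 5.20 and 5.10 in the order wild type normal, wild type high-fat, knockout normal and knockout high-fat diet. The unscaled signals of Sdha were 37154, 35155, 36762 and 39491, highest on the knockout high-fat array. The iron-sulfur subunit gene Sdhb moved over a wider scaled range, at 6.57, 6.51, 6.73 and 6.39. A further Sdhb probe gave the same shape, with diet differences of -0.06 in wild type and -0.37 in the knockout, against -0.06 and -0.34 for the brightest probe. The membrane anchor genes Sdhc (4.62, 4.56, 4.71 and 4.54) and Sdhd (5.74, 5.63, 5.70 and 5.47) had scaled ranges between these.

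Complex III held the widest member of the whole set. Uqcrc1, core protein 1 of the complex, read 3.96 and 3.89 in wild type (normal, then high-fat diet) and 4.36 and 3.86 in the knockout. The knockout normal-diet array alone was high, and the other 3 lay between 3.86 and 3.96. In unscaled signal the same arrays gave 15663, 15100, 20582 and 16690. Its difference of 0.40 ± 0.20 between genotypes on normal diet and of -0.50 ± 0.20 between diets in the knockout, a 1.42-fold difference, share that 1 array. Only 1 probe read Uqcrc1. The other core protein gene, Uqcrc2, did not follow it, at 5.42, 5.51, 5.50 and 5.34. Uqcrc2 is the best measured member, printed as 10 spots on each array with an SD between spots of 0.02 to 0.04, and its differences carry a scanner error of 0.06.

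Among the remaining genes of complex III, the Rieske iron-sulfur protein gene Uqcrfs1 was the flattest in scaled signal, at 5.55, 5.50, 5.57 and 5.40. The small subunit gene Uqcrb read 6.03, 6.05, 6.08 and 5.71, and in unscaled signal 65840, 67653, 67836 and 60338. Its lone low value on the knockout high-fat array was seen on all 3 of its probes, with scaled diet differences in the knockout of -0.37, -0.34 and -0.34. Uqcrq, a small subunit, read 7.42, 7.41, 7.38 and 7.20. Cyc1, cytochrome c1, read 5.87, 5.73, 5.90 and 5.61, lower on both high-fat arrays. Cycs, the mobile carrier cytochrome c, had another shape, at 5.43, 5.34, 5.25 and 5.15. Both knockout arrays were lower than both wild-type arrays, by 0.19 on normal diet and 0.20 on high-fat diet, each inside the scanner error of 0.20. The unscaled signals, 43485, 41336, 38121 and 40785, kept that arrangement. Set against the equally bright genes, the Cycs difference was -0.19 on normal diet and -0.04 on high-fat diet.

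Complex IV, cytochrome c oxidase, had 5 members. Cox4i1, the ubiquitous form of subunit 4, read 6.87, 6.87, 6.94 and 6.76 and was the flattest of them. Cox5a read 6.89, 6.73, 6.73 and 6.54, highest in wild type on normal diet. Cox5b read 5.81, 5.90, 5.86 and 5.57, with only the knockout high-fat array low in scaled signal. Its unscaled signals were 56593, 61046, 58220 and 54550. Cox7a2, the liver-type form of subunit 7a, read 5.65, 5.62, 5.53 and 5.20. Its difference between genotypes on high-fat diet, -0.42 ± 0.20, a 1.34-fold difference, was the lowest of the 39 genes, and it was -0.27 relative to the equally bright genes (-0.27 to -0.26 over the 10 ways of processing). Cox6c read 6.65, 6.60, 6.55 and 6.38.

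Complex V was represented by 3 genes of the catalytic F1 part. Atp5a1, the alpha subunit, was the flattest of all 39 members in scaled signal, at 6.56, 6.50, 6.51 and 6.47. Its unscaled signals were 94788, 92440, 91680 and 101972, highest on the knockout high-fat array, and it was not the flattest without scaling. Atp5b, the catalytic beta subunit, was highest in wild type on normal diet, at 7.58, 7.47, 7.47 and 7.33. Atp5c1, the gamma subunit that forms the central stalk, read 5.93, 5.95, 5.99 and 5.72, again with only the knockout high-fat array low in scaled signal. Its unscaled signals were 61170, 63077, 63829 and 60820. A further Atp5c1 probe read 4.47, 4.34, 4.43 and 4.18, lower on both high-fat arrays.

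In wild type no subunit gene differed by 1.5-fold between high-fat and normal diet. Of the 39 genes, 0 were called at 2-fold, against 4.09% of 14633 named genes, and 0 at 1.5-fold, against 11.0%. The differences ran from -0.17 for Ndufs7 to 0.09 for Ndufa10, all inside the scanner error except that of the 10-spot Uqcrc2, 0.09 ± 0.06. The median was -0.04, with 30 genes below 0 and 9 above, but it was 0.05, 0.08 and 0.05 with median scaling, quantile normalization and cyclic loess, so no direction can be read from it. The equally bright genes had a median of -0.06, and 2.19% of them were called at 2-fold and 5.88% at 1.5-fold. Without scaling the members' median was -0.02, with 24 genes below 0 and 15 above. The medians by complex were -0.03, -0.08, -0.05, -0.03 and -0.06 for complexes I to V, and each turned positive under median scaling and quantile normalization.

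High-fat diet in the knockout gave lower scaled values throughout the set, by little more than for other bright genes. Of the 39 genes, 0 were called at 2-fold, against 5.86% of 14902 named genes, and 0 at 1.5-fold, against 15.2%. All 39 differences were below 0, from -0.50 for Uqcrc1 to -0.05 for Atp5a1, with a median of -0.24 or 1.18-fold lower. The equally bright genes had a median of -0.21, 82.8% of them were below 0, and 3.49% were called at 2-fold and 13.5% at 1.5-fold. Without scaling the members' median was -0.04, with 24 genes below 0 and 15 above. The members' median kept its sign under every way of processing tried, at -0.34 to -0.03, and its distance from the equally bright genes stayed at -0.05 to -0.03. Scaling by a constant cannot change that distance.

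Within that comparison the complexes were ordered. Complex I had the lowest median, -0.26, followed by complex II (-0.21), complex IV (-0.20), complex III (-0.18) and complex V (-0.13). Complex I was the lowest and complex V the highest of the 5 under all 10 ways of processing, though scaling by a constant cannot change that order. The sign of the others was not as firm, since the medians of complexes III, IV and V turned positive with quantile normalization, cyclic loess and no scaling, and that of complex II with quantile normalization. The gap between complexes I and V, from -0.26 to -0.13, is smaller than the scanner error of 0.20 on 1 gene, and complex V rests on 3 genes that themselves ran from -0.27 for Atp5c1 to -0.05 for Atp5a1. The 3 lowest genes were Uqcrc1, Uqcrb and Ndufa6 (-0.34), and the 3 highest were Atp5a1, Ndufa10 (-0.05) and Sdha (-0.10).

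**Figure D2:**
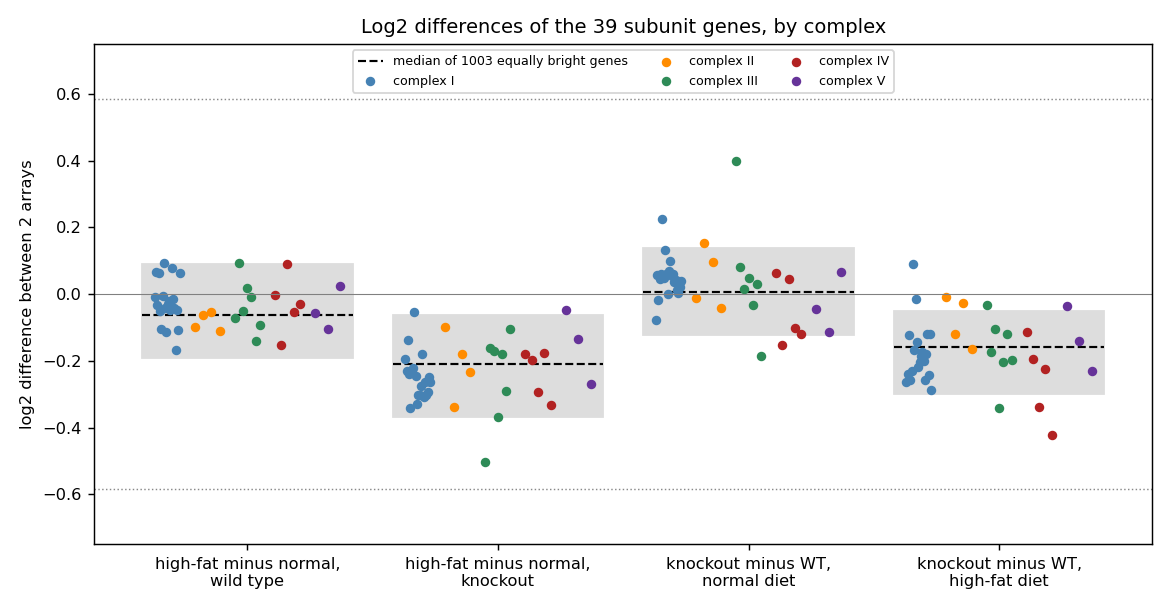
Log2 difference of each of the 39 genes in the 4 comparisons, scaled to the 75th percentile and coloured by complex, with the interquartile range (grey) and the median (dashed) of 1003 equally bright genes, and dotted lines at 1.5-fold. Points sit inside or near the grey box in each comparison and 0 reach 1.5-fold. The low position of both comparisons that use the knockout high-fat array is shared with the equally bright genes and is nearly absent without scaling.

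On normal diet the subunit genes of the knockout read slightly above those of wild type as a set. Of the 39 genes, 0 were called at 2-fold, against 3.91% of 14699 named genes, and 0 at 1.5-fold, against 10.5%. Among equally bright genes 1.69% were called at 2-fold and 4.09% at 1.5-fold. The members' median was 0.04, with 27 genes above 0 and 12 below, and that of the equally bright genes was 0.01. It stayed positive under every way of processing, at 0.04 to 0.19. Its distance from the equally bright genes, which scaling by a constant cannot change, stayed at 0.03 to 0.04. Without scaling the members' median was 0.04, with 26 genes above 0 and 13 below. Uqcrc1 (0.40), Ndufa8 (0.22) and Sdhb (0.15) were highest, and the further Sdhb probe gave 0.19. Cycs (-0.19), Cox5a (-0.15) and Cox7a2 (-0.12) were lowest. Complex IV had the lowest median of the 5 complexes, -0.10, and was the lowest under all 10 ways of processing, although it became 0.04 with median scaling. Scaling by a constant cannot change its place among the complexes. Complexes I, II and III were at 0.05, 0.04 and 0.03, and complex V at -0.04, positive with 3 of the 10.

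On high-fat diet 38 of the 39 genes were lower in the knockout than in wild type in scaled signal, and 20 of 39 without scaling. Of the 39 genes, 0 were called at 2-fold, against 4.10% of 14841 named genes, and 0 at 1.5-fold, against 11.7%. Among equally bright genes 2.09% were called at 2-fold and 7.88% at 1.5-fold. The members' median was -0.18, or 1.13-fold lower, against -0.16 for the equally bright genes, of which 82.7% were below 0. Across the ways of processing the members' median ran from -0.24 to -0.0029, the latter without scaling, and its distance from the equally bright genes from -0.02 to -0.00020. Cox7a2, Uqcrb (-0.34) and Cox5b (-0.34) were lowest, and Ndufa8, Sdha (-0.01) and Ndufa10 (-0.01) were highest. Complex IV was lowest, at -0.23, and complex II highest, at -0.07, with complexes I, III and V at -0.19, -0.17 and -0.14. Complex II was the highest of the 5 under all 10 ways of processing, but its own sign was positive in 4 of them, that of complex V in 3 and that of complex III without scaling. Here too, scaling by a constant cannot change the order.

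**Figure D3:**
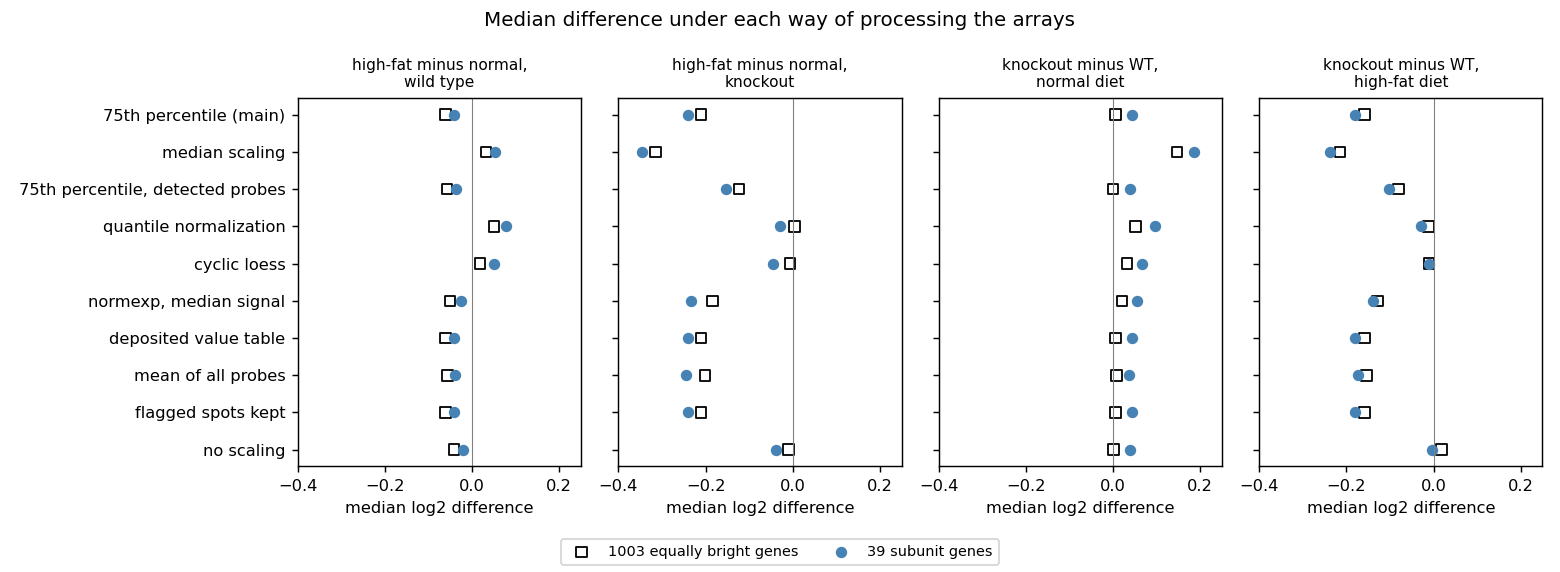
Median log2 difference of the 39 subunit genes (filled) and of the 1003 equally bright genes (open) in each comparison under 10 ways of processing the arrays. The 2 symbols move together from setting to setting, as they must where a setting only adds a constant to each array, and stay within 0.05 of each other. In the knockout diet comparison the members' median runs from -0.34 to -0.03.

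The difference between diet effects, knockout minus wild type, was computed gene by gene from all 4 arrays. The members' median was -0.22, with 37 of 39 genes below 0, and the equally bright genes had -0.16 with 74.5% below 0. Single-gene values ran from -0.43 for Uqcrc1 to 0.01 for Atp5a1, beside a scanner error of 0.29. For Uqcrc2, with its 10 spots, the value was -0.25 ± 0.09, an error that covers the spots and not the scaling. Its unscaled signals were 43028 and 46489 in wild type (normal, then high-fat diet) and 45358 and 46639 in the knockout. Unscaled, it was thus higher on high-fat diet in both genotypes. Without scaling only 22 of the 39 remained below 0. Complex I was lowest, at -0.23, and complex V nearest 0, at -0.03. Sdha and Cycs joined Atp5a1 as genes with nearly the same scaled diet difference in both genotypes, at -0.10 and -0.10 for Sdha and -0.09 and -0.10 for Cycs. Across the 39 genes the diet differences of the 2 genotypes had a Pearson correlation of 0.10, against 0.48 across the equally bright genes. Genes are not independent replicates, and the members' narrow range leaves little for a correlation to follow.

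**Figure D4:**
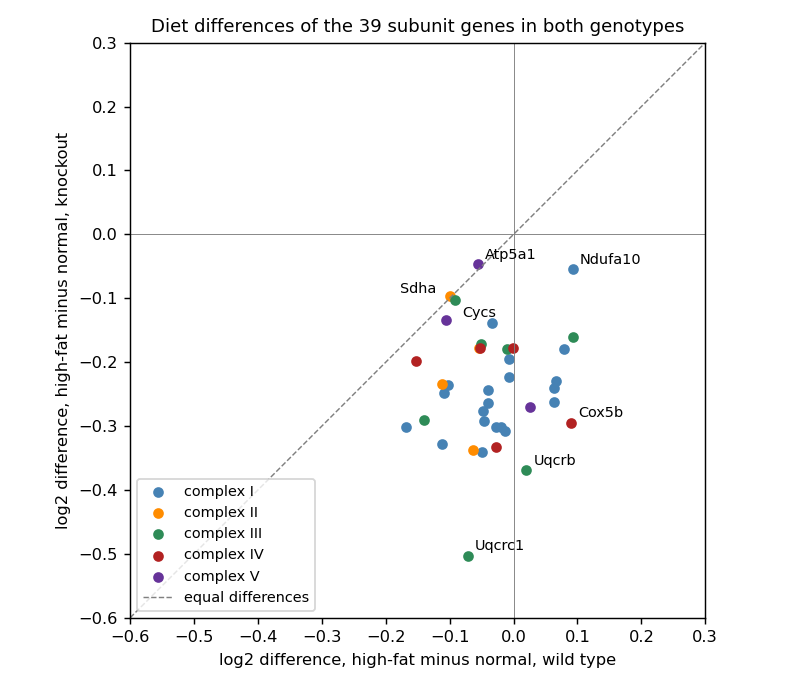
Log2 difference between high-fat and normal diet for each of the 39 genes, wild type on the horizontal and knockout on the vertical axis, scaled to the 75th percentile and coloured by complex. In scaled signal 37 of 39 points lie below the dashed line of equal differences, 22 without scaling, and the wild-type values span only -0.17 to 0.09.

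The 39 genes also lay closer together than other bright genes. Between 37 and 39 of them were within 0.2 of the equally bright median in each of the 4 comparisons, against 62.0% to 68.2% of the equally bright genes. The SD over members was 0.07 for diet in wild type, 0.09 for diet in the knockout and 0.10 for each comparison of genotypes, against 0.29 to 0.36 over the equally bright genes. For 8 genes the array held 10 further probes, all well above background, and 9 or 10 of the 10 lay within 0.2 of the gene's brightest probe in every comparison. The one exception was a second Ndufb5 probe in the wild-type diet comparison, at 0.19 against -0.11. In scaled signal the further probes below 0 numbered 10 of 10 in both comparisons that use the knockout high-fat array and 7 of 10 for diet in wild type. They share that array's scaling, with its offsets of 0.20 for diet and 0.18 for genotype, so their sign there is not separate support. For genotype on normal diet 7 of 10 were also below 0, where 27 of the 39 brightest probes were above it. The further probes of Cycs and Uqcrq among them follow brightest probes that were also below 0 (-0.19 and -0.03). Further probes of Atp5c1 (-0.04 against 0.07), Ndufa5 (-0.02 against 0.05) and Uqcrb (-0.05 and -0.0030 against 0.05) turned sign there. That of Ndufb5 turned the other way (0.07 against -0.0009).

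Genes whose promoter window held the NRF1 letters overlapped in their values with the other genes that had a window. In the knockout diet comparison the 9 such genes had a median of -0.24 and the 19 others with a window -0.26, with ranges that overlapped (-0.50 to -0.10 and -0.34 to -0.05). Between genotypes on high-fat diet the medians were -0.17 and -0.18, for diet in wild type -0.07 and -0.04, and between genotypes on normal diet 0.05 and 0.02. Of the factors themselves, Nrf1 read -1.36, -1.23, -1.06 and -1.12 in the order wild type normal, wild type high-fat, knockout normal and knockout high-fat diet. Gabpa read 0.60, 0.53, 0.75 and 0.46, Yy1 0.93, 0.95, 1.03 and 0.77, and Esrra 2.74, 2.94, 3.10 and 3.14. None of these 4 was called at 1.5-fold in a comparison.

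The rest of the pathway was read from lists of its other parts. A further 39 oxidative phosphorylation subunit genes outside the fixed list, among them Uqcrh, Cox8a and Atp5o, likewise had 0 called at 1.5-fold in any of the 4 comparisons. Their medians were -0.05 for diet in wild type, -0.27 for diet in the knockout, 0.0017 for genotype on normal diet and -0.21 for genotype on high-fat diet. On normal diet 20 of them were above 0 and 19 below, so the slight excess over equally bright genes seen in the fixed list was not seen there. The 77 measured genes of mitochondrial ribosomal proteins, which translate the mitochondrially encoded subunits, had medians of 0.0035, -0.13, 0.02 and -0.13 in the same order, with 0 called at 1.5-fold. The assembly factors, which build the complexes and were measured for 39 or 40 genes in each comparison, had medians of 0.02, -0.15, 0.09 and -0.14, with 0 called at 2-fold. At 1.5-fold 2 of them were called. Sco2, a copper chaperone for complex IV, read 0.87 ± 0.20 higher in the knockout on normal diet. Atpaf1, an assembly factor of complex V, was not well above background in the knockout on high-fat diet, with bounds of -0.94 on the log2 scale for diet in the knockout and -0.80 for genotype on high-fat diet. These 2 were picked out after their values were seen. Of 9 isoforms found mainly in other tissues, Cox7b2, Cox8c and Cyct were not well above background on any array, and the 6 measured ones had 0 called.

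Larger differences were found in single genes around the chain. Among 29 regulators of mitochondrial biogenesis, the coactivator gene Ppargc1b read -1.49, -1.33, -0.88 and -1.90 in the order wild type normal, wild type high-fat, knockout normal and knockout high-fat diet. Its diet difference in the knockout, -1.03 ± 0.21, was the only 2-fold call of that list, and it fell short of 2-fold with normexp background correction (-0.84), with the percentile taken over detected probes (-0.94) and without scaling (-0.83). Its relative Ppargc1a, the main inducible coactivator, read 0.13, -0.02, -0.10 and -0.25, with no call. Tfam, which packages and transcribes mitochondrial DNA, read 1.80, 1.91, 1.99 and 1.97. Other regulator differences passed 1.5-fold only. They were Esrrg (0.65) and Ppara (0.61) for diet in wild type, Ppargc1b (0.61) for genotype on normal diet and Esrrg (-0.78) for genotype on high-fat diet. Among 26 measured genes of the tricarboxylic acid cycle and pyruvate dehydrogenase, Pdk4, the kinase that shuts pyruvate dehydrogenase off, read -1.62, -1.15, -1.69 and -0.53. Its diet difference in the knockout, 1.16 ± 0.21, was the only 2-fold call of that list and was 0.99 with normexp. At 1.5-fold Pdk4 was also called for genotype on high-fat diet (0.62). Pdk3 was called at 1.5-fold by its bounds, -0.86 for diet in wild type and -0.93 for genotype on normal diet. Among 20 measured carriers and uncoupling genes 0 were called at 2-fold. The uncoupling protein genes Ucp2 (-2.01, -1.36, -1.70 and -0.81) and Ucp3 (-2.01, -1.32, -1.52 and -0.56) both passed 1.5-fold for diet, by 0.65 and 0.69 in wild type and by 0.90 and 0.96 in the knockout. For genotype, Ucp3 (0.76), Sqor (-0.72) and Slc25a13 (-0.62) passed it on high-fat diet and Slc25a10 (0.65) on normal diet.

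Cell type markers differed on the array on which the scaled subunit genes read lowest, and on other arrays too. The 10 hepatocyte markers, Alb, Ttr and Hnf4a among them, were well above background on all 4 arrays, with a summed level of 11.91, 11.80, 11.83 and 11.54 in the order wild type normal, wild type high-fat, knockout normal and knockout high-fat diet. Their median difference was -0.28 for diet in the knockout and -0.30 for genotype on high-fat diet, beside -0.24 and -0.18 for the subunit genes, all in scaled signal. Of these 10 only Cps1 was called lower at 2-fold, in both comparisons (-1.10 and -1.01), while Apoa1 differed by 0.02 and -0.40. The summed level was carried mostly by Alb, Serpina1a, Trf and Ahsg. Macrophage markers, of which 8 or 9 of 9 were above background, had summed levels of 4.42, 4.62, 4.19 and 5.60, and 7 of 9 were called higher at 2-fold in each of those comparisons. The 8 stellate and matrix markers had summed levels of 5.79, 5.94, 5.58 and 6.19, a sum carried mostly by Dcn. Of these 8, 4 were called higher at 2-fold for diet in the knockout (Col1a1, Col1a2, Col3a1 and Timp1) and 3 for genotype on high-fat diet. Of 4 neutrophil markers, 3 were called higher in each of those 2 comparisons. The other comparisons held calls too. For diet in wild type Col1a1 (1.13), Timp1 (1.55), endothelial Lyve1 (1.82), adipocyte Cfd (2.81) and erythroid Hba-a1 (1.38) were called higher. For genotype on normal diet Marco (-1.18) and neutrophil Retnlg (-1.32) were called lower, and neutrophil Mpo higher by its bound (1.89). Of the 9 muscle markers 6, Ckm and Myh4 among them, were not well above background on any array, and the other 3, the subunit isoforms Cox6a2, Cox7a1 and Cox8b, were well above it on all 4. Without scaling the subunit medians were -0.04 for diet in the knockout and -0.0029 for genotype on high-fat diet. The marker values of those 2 comparisons carry the same scaling offsets of 0.20 and 0.18. In whole liver RNA, the scaling of that array, fewer hepatocytes and less of these transcripts per hepatocyte cannot be told apart as sources of the low scaled values. The part of the other cell types in the subunit values was not tested.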

How the data were processed

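Liver RNA labelled with Cy3 was read on 4 one-colour arrays, 1 for each group. Spot intensity in the deposited scanner files was made by Feature Extraction 11.5.1.1, per the file headers, and its linear processed signal already has the background taken off. The authors used GeneSpring GX 7.3, per the series' design text, and their scaling is not given in the sources used here. A deposited table of the series holds the same intensity, uncentred, within 1% for 99.8% of probes on each array, with column medians of 79.87, 75.87, 72.38 and 89.16. Its direction does not apply to 1 colour.

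Control spots and flagged spots were left out, log2 values of the remaining spots of each of 39429 probes were averaged, and each array's 75th percentile was subtracted. RefSeq accessions without version (table of GRCm38.p6) named 27502 probes and left 11927 unnamed. The brightest probe stood for a gene. All 4 arrays lay on 1 slide in 1 scan. Members and lists were chosen with earlier results of these data known. Values by array are given for the 3 highest and 3 lowest members of each comparison, for the widest and narrowest of each complex, and for members chosen afterwards by their role. The planned normexp on the mean signal was run on the median signal, since the files used here hold no mean signal. That setting and the one without scaling were added after the data had been seen. The call rule was tested on simulated data. Python 3.11.15, pandas 2.3.3, numpy 2.4.6, R 4.3.3 and limma 3.58.1 were used.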

Additional observations from a re-analysis of the deposited data

Results flagged for a closer look

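The difference between knockout and wild type had opposite signs on the 2 diets for the members' median, 0.044 on normal diet and -0.18 on high-fat diet. The same held for complex I (0.047 and -0.19), complex II (0.044 and -0.07) and complex III (0.029 and -0.17). This change of sign between diets was not tested, since each group is 1 array. Without scaling the members' medians were 0.04 and -0.0029, and those of complexes II and III were positive on both diets.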

How the results depend on the processing

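Each result was recomputed in 9 other ways. The values below moved by more than 0.20 (medians, the scanner error of 1 gene) or 1.5 times (counts). Most medians are smaller than 0.20, so a median not listed may still have turned sign, as those for diet in wild type did. The count of members called at 2-fold was 0 throughout, and at 1.5-fold it was 1 in a single case, the diet comparison in the knockout with median scaling (Uqcrc1, -0.61). In wild type, members below 0 on high-fat diet numbered 9 with median scaling, 4 with quantile normalization and 10 with cyclic loess, against 30. In the knockout they numbered 24 with quantile normalization, 24 with cyclic loess and 24 without scaling, against 39, and the members' median became -0.029 with quantile normalization. There the medians of complexes II, III, IV and V became 0.0068, 0.063, 0.025 and 0.12 with quantile normalization, and those of III, IV and V became 0.043, 0.053 and 0.14 with cyclic loess. On normal diet, members lower in the knockout numbered 2 with median scaling and 6 with quantile normalization, against 12. On high-fat diet they numbered 24 with quantile normalization, 25 with cyclic loess and 20 without scaling, against 38. Members with a lower diet effect in the knockout numbered 22 without scaling, against 37. Quantile normalization and cyclic loess force bright probes of all arrays to 1 level, and without scaling the 75th percentile of the array of the knockout on high-fat diet is 0.20 above that of its partner. With median scaling the median over every gene measured shifted by 0.09, -0.11, 0.14 and -0.06 in the 4 comparisons. No paired analysis was possible because each group is 1 array.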
